A study of Mus musculus with 16 samples.

Results

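The Gadd45 genes Gadd45a, Gadd45b and Gadd45g were followed in cultured mouse cortical neurons that were depolarised with KCl while the transcription factor c-Fos was knocked down. The members were the probe sets of the array whose gene symbol in the platform annotation is one of these 3 names. That rule gave 5 of the 45101 probe sets: 1 for Gadd45a (1449519_at), 3 for Gadd45b (1450971_at, 1449773_s_at and 1420197_at) and 1 for Gadd45g (1453851_a_at). All 5 passed the filter on low values, and all 3 genes were among the 13915 genes tested of 18193 named.

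The cultures came from the cortex of C57BL/6 mice at embryonic day 16.5, and no other genotype or strain entered the study. On day 5 in vitro they received, for 6 h and with polybrene at 6 µg/ml, a lentivirus carrying an shRNA against c-Fos or one carrying a control shRNA against firefly luciferase, a gene that mouse cells lack. On day 7 the cultures were silenced before KCl was added for 0, 1, 3 or 6 h, which gave 8 groups: c-Fos shRNA at each of the 4 times and control shRNA at each of the 4 times. Each group held 2 arrays (1-colour Affymetrix mouse expression arrays), named as biological replicates without saying whether they came from separate dissections, so the p-values speak only of the spread between the arrays of a group. All groups share viral infection and silencing, 1 shRNA is given per arm, and the share of infected cells is not given in the sources used here.

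GADD45 proteins (growth arrest and DNA damage inducible) are small acidic proteins without known enzymatic activity that act by binding partners. They bind and activate the kinase MTK1 (Map3k4) upstream of p38 and JNK, they bind PCNA, the CDK inhibitor p21 (Cdkn1a) and CDK1, and they have been linked to active DNA demethylation together with repair enzymes. Gadd45a is a classic target of p53 after DNA damage. Gadd45b is known in the mouse hippocampus as an activity-induced gene tied to demethylation at the promoters of the growth factor genes Bdnf and Fgf1. Gadd45g is the third member and, like Gadd45b, is described as an early-response gene.

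Levels are deposited linear intensities in arbitrary units, and a level of one probe set cannot be set against that of another. Differences are on the log2 scale of the intensity plus 16 after quantile normalization, a scale that understates the change of dim genes. A gene is said to have changed where the limma adjusted p (Benjamini-Hochberg over all 13915 genes) was under 0.05. The number of arrays limits the precision, and with bulk RNA fewer cells of a type and less RNA per cell cannot be told apart.

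Fos itself, the targeted gene, was lower with c-Fos shRNA than with control shRNA by 45.2, 40.9, 70.1 and 72.8% at 0, 1, 3 and 6 h. The 7 neuronal markers summed to intensities of 63220 to 69492 on the c-Fos arrays and 63042 to 70559 on the control arrays, ranges that overlap. Within that list 3 markers were higher and 4 lower with c-Fos shRNA on average, and Rbfox3 (NeuN) was among the lower ones (log2 -0.74). Glia were present in both arms: astrocyte markers summed to 11711 to 14921 with c-Fos and 12363 to 15922 with control shRNA, and oligodendrocyte-lineage markers to 10264 to 15924 and 9038 to 17107. Of 6 microglial markers 5 were below the filter on low values, as were 3 of 6 vascular and fibroblast markers, among them Cldn5 and Pecam1. Microglial markers summed to 247 to 331 with c-Fos and 227 to 302 with control shRNA, and markers of progenitors and dividing cells to 7798 to 10587 and 8184 to 11187. The part of these cell types in the Gadd45 values was not tested.

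The 250 bases before each gene's start are shown because the shRNA targets a factor of the AP-1 complex and the members respond to KCl with different timing, so a reader may wish to see which letters stand there. They are from RefSeq on GRCm38.p6, read 5′ to 3′ on the strand of the gene, and capitals mark matches to the motifs searched. Gadd45a lies at chr6:67035096-67037407 on the minus strand with its window at chr6:67037408-67037657, Gadd45b at chr10:80930091-80932204 on the plus strand with its window at chr10:80929841-80930090, and Gadd45g at chr13:51846675-51848475 on the plus strand with its window at chr13:51846425-51846674.
Gadd45a: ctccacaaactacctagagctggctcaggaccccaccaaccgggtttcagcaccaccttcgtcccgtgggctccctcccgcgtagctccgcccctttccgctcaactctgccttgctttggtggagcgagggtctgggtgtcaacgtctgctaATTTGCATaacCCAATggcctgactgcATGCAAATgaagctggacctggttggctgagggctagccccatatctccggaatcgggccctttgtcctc
Gadd45b: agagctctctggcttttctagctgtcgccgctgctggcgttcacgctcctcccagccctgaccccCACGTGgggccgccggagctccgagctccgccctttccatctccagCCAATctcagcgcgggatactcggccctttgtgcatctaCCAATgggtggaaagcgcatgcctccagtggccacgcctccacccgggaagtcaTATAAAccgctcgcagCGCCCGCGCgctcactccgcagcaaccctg
Gadd45g: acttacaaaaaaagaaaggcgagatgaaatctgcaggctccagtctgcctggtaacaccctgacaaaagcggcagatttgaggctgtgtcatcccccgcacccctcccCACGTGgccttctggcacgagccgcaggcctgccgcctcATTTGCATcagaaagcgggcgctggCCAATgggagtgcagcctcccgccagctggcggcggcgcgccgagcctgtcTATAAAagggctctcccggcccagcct
The motifs, searched on both strands, were the AP-1 site TGANTCA, the cAMP response element TGACGTCA and its shorter core TGACG, the EGR site GCGNGGGCG, the octamer ATTTGCAT, the E-box CACGTG, the CCAAT box and TATAAA. They occur in 6.75, 1.55, 17.8, 4.7, 1.6, 6.02, 33.8 and 12.4% of 32851 RefSeq windows of this length, and the shorter core lies within the full element.

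No window of the 3 holds the AP-1 letters, the cAMP response element or its core, which says only that these letters are not in these 250 bases. The Gadd45a window holds the octamer in both orientations, starting 97 and 70 bases before the gene's start, with a CCAAT box between them at 86 bases and no TATAAA. The Gadd45g window also holds an octamer, at 103 bases, and in addition an E-box at 142, a CCAAT box at 78 and TATAAA at 27 bases. The Gadd45b window holds an EGR match (CGCCCGCGC) at 30 bases, an E-box at 185, CCAAT boxes at 139 and 100, and TATAAA at 46 bases. The windows have 59.2% (Gadd45a), 65.2% (Gadd45b) and 62% (Gadd45g) G and C with 11, 22 and 16 CpG dinucleotides, against medians of 52.4% and 6 over all windows. A match is a description of the letters and not a measured binding site.

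Gadd45b gave the largest log2 change of the 3 members at 1 h of KCl, a burst at 1 h that was mostly gone by 6 h. In c-Fos shRNA cultures the brightest probe set (1450971_at) read 92.95 and 87.7 before KCl, 2395 and 2046 after 1 h, 392 and 539 after 3 h, and 193 and 232 after 6 h. In control cultures it read 138 and 147 before KCl, 2198 and 2348 after 1 h, 609.6 and 727 after 3 h, and 311 and 373 after 6 h. Within each arm no 2 time groups overlapped, and every stimulated array lay above every array at 0 h.

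At 1 h Gadd45b was 24.6-fold above 0 h in the c-Fos arm (log2 4.36, SE 0.14, adjusted p = 1.66e-09) and 15.9-fold above it in the control arm (log2 3.84, SE 0.14, adjusted p = 4.15e-09). At 3 h the log2 changes were 2.19 with c-Fos (adjusted p = 5.01e-07) and 2.16 with control shRNA (4.1e-07), and at 6 h they were 1.12 (5.85e-05) and 1.26 (1.96e-05). The 3 comparisons within an arm share its 0 h arrays. By 3 h Gadd45b stood at 21.0% of its 1 h mean with c-Fos and 29.4% with control shRNA, and by 6 h at 9.59 and 15.0%. The fall between 1 and 3 h passed the test in both arms (log2 -2.18 with c-Fos, adjusted p = 3.57e-06, and -1.68 with control shRNA, 8.92e-06), as did the further fall from 3 to 6 h (-1.06, 0.000539, and -0.91, 0.00127).

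**Figure D1:**
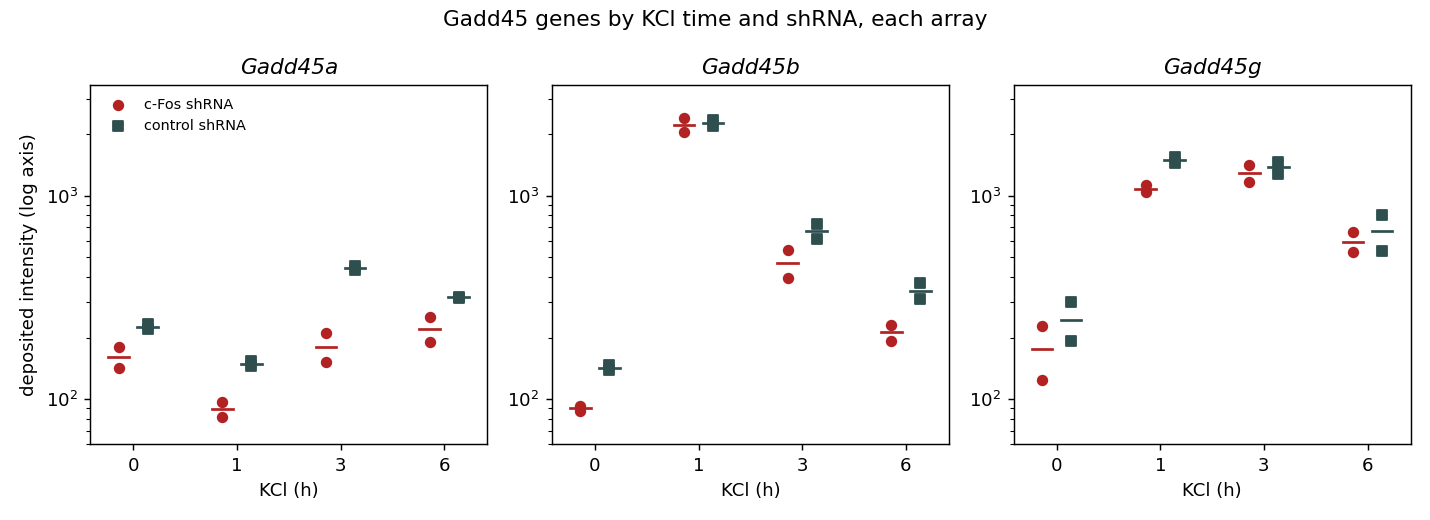
Deposited intensity (log axis, arbitrary units) of Gadd45a, Gadd45b and Gadd45g on each of the 16 arrays by hours of KCl, with c-Fos shRNA as circles and control shRNA as squares, and group means as short lines. Gadd45b peaks at 1 h at means of 2220 with c-Fos and 2273 with control shRNA, Gadd45g holds between 1083 and 1494 at 1 and 3 h in the 2 arms, and Gadd45a is lowest at 1 h in both arms (89.6 and 149).

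The 3 probe sets of Gadd45b traced the same course. Probe set 1449773_s_at averaged 91.5, 1767, 374 and 181 at 0, 1, 3 and 6 h with c-Fos shRNA and 128, 1820, 514 and 235 with control shRNA. The dim probe set 1420197_at averaged 24.4, 251, 74.8 and 48.0 with c-Fos and 48.1, 246, 114 and 62.3 with control shRNA. In a fit of all 31526 probe sets, 3 of 3 were higher than at 0 h at 1 and 3 h in both arms, where 1.81 and 9.36% of all probe sets were with c-Fos and 2.28 and 10.6% with control shRNA, with log2 changes at 1 h of 2.71 to 4.36 with c-Fos and 2.01 to 3.84 with control shRNA. At 6 h 3 of 3 were still higher in the c-Fos arm and 2 of 3 in the control arm, where the dim probe set stood at a log2 of 0.30 (adjusted p = 0.346), against 14.7 and 15.8% of all probe sets. The smaller values belong to the dimmest probe set, for which the log scale with its added 16 understates changes most. How much of the gap to the other probe sets comes from this was not tested.

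**Figure D2:**
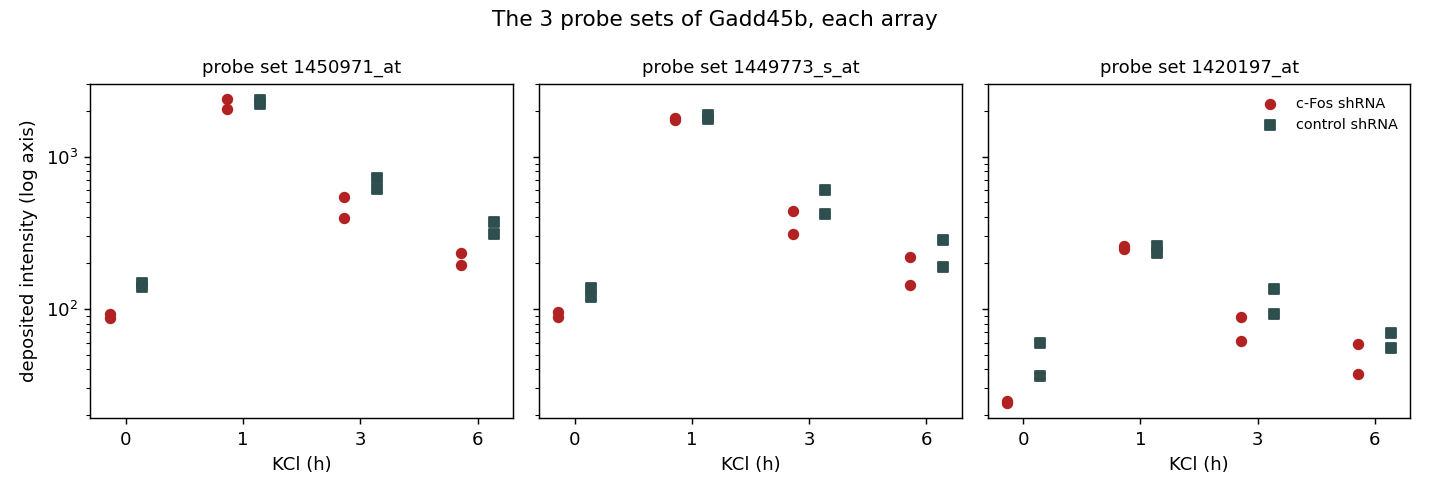
Deposited intensity (log axis, arbitrary units) of the 3 Gadd45b probe sets on each of the 16 arrays by hours of KCl, c-Fos shRNA as circles and control shRNA as squares. Each probe set is highest at 1 h, where its means were 2220 with c-Fos and 2273 with control shRNA (1450971_at), 1767 and 1820 (1449773_s_at), and 251 and 246 (1420197_at).

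Gadd45g, like Gadd45b, was up at 1 h, the first time sampled after 0 h, but held its level for longer. With c-Fos shRNA it read 124 and 229 before KCl, 1038 and 1127 after 1 h, 1166 and 1412 after 3 h, and 527 and 663 after 6 h. With control shRNA it read 192 and 299 before KCl, 1445 and 1543 after 1 h, 1280.2 and 1470.2 after 3 h, and 536 and 804 after 6 h. Every stimulated array lay above every unstimulated one, the arrays at 1 and 3 h overlapped in the control arm, and replicate 2 read above replicate 1 in all 8 groups.

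The rise of Gadd45g at 1 h was 6.13-fold with c-Fos (log2 2.53, SE 0.24, adjusted p = 4.59e-05) and 6.09-fold with control shRNA (log2 2.53, SE 0.24, adjusted p = 3.81e-05). At 3 h it was 7.30-fold with c-Fos (log2 2.83, adjusted p = 3.38e-06) and 5.60-fold with control shRNA (2.47, 8.57e-06), and at 6 h 3.37-fold (1.76, 9.55e-05) and 2.73-fold (1.48, 0.000294). Between 1 and 3 h no change was called: the log2 differences were 0.30 with c-Fos (adjusted p = 0.478) and -0.06 with control shRNA (0.924). At 3 h the mean stood at 119% of the 1 h mean with c-Fos and 92.0% with control shRNA, where Gadd45b had dropped to 21.0 and 29.4%. From 3 to 6 h Gadd45g fell in both arms, with log2 changes of -1.07 with c-Fos (adjusted p = 0.00979) and -0.99 with control shRNA (0.0142). With the replicate number as a block the adjusted p-values of limma were 1.74e-05 and 3.06e-05. Arrays were left out only in the fit without the block, which ignores the pairing of same-numbered arrays. In that fit the call was lost in the c-Fos arm without its 3 h replicate 2 (-0.94) or its 6 h replicate 1 (-0.96). In the control arm it was lost without the 3 h replicate 2 (-0.90) or the 6 h replicate 1 (-0.73).

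Gadd45a took another course: its lowest levels came at 1 h, a drop called in the c-Fos arm, and in the control arm under the replicate block alone, and it was higher at 6 h in both arms. With c-Fos shRNA it read 180.4 and 142 before KCl, 97.3 and 81.9 after 1 h, 151.5 and 211 after 3 h, and 190.4 and 252 after 6 h. With control shRNA it read 233 and 220.4 before KCl, 145 and 154 after 1 h, 453 and 431 after 3 h, and 319 and 314 after 6 h. In the control arm the 4 time groups did not overlap. In the c-Fos arm the 1 h arrays lay below all others, and those at 0 and 3 h and those at 3 and 6 h overlapped.

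At 1 h Gadd45a stood at 55.5% of its 0 h mean in the c-Fos arm (log2 -0.72, SE 0.16, adjusted p = 0.0317) and at 66.0% in the control arm (log2 -0.56, SE 0.16, adjusted p = 0.116, and 0.0307 with the replicate number as a block). The call in the c-Fos arm was lost without the c-Fos 0 h replicate 1 (log2 -0.52, adjusted p = 0.331), without the c-Fos 1 h replicate 1 (-0.85, 0.0562) or 2 (-0.59, 0.221), and without the control 1 h replicate 1 (-0.72, 0.0511) or 2 (-0.72, 0.0511). At 3 h the change against 0 h was 0.17 with c-Fos (adjusted p = 0.521), while Gadd45a rose by 0.97 with control shRNA (adjusted p = 0.000646). At 6 h Gadd45a was higher than at 0 h by 0.45 with c-Fos (adjusted p = 0.0434) and by 0.54 with control shRNA (0.0187).

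Between 1 and 3 h Gadd45a climbed in both arms, by a log2 of 0.89 with c-Fos (adjusted p = 0.00225) and 1.53 with control shRNA (4.1e-05). Those changes ranked 166 and 52 from the top of the 13915 genes in their comparisons, in which the fall of Gadd45b ranked 3 and 23 from the bottom. From 3 to 6 h the change was 0.28 with c-Fos (adjusted p = 0.293) and -0.44 with control shRNA (0.0949, and 0.035 with the block). The 6 h call in the c-Fos arm was lost without any one of 11 arrays, namely any of the 8 control arrays, the c-Fos 0 h replicate 2 and either c-Fos 6 h array, with log2 values of 0.25 to 0.66 over all arrays left out in turn. The 6 h call in the control arm was lost without the control 0 h replicate 2 (0.49, adjusted p = 0.0943) and without the control 6 h replicate 1 (0.50, 0.0866) or 2 (0.57, 0.0519).

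**Figure D3:**
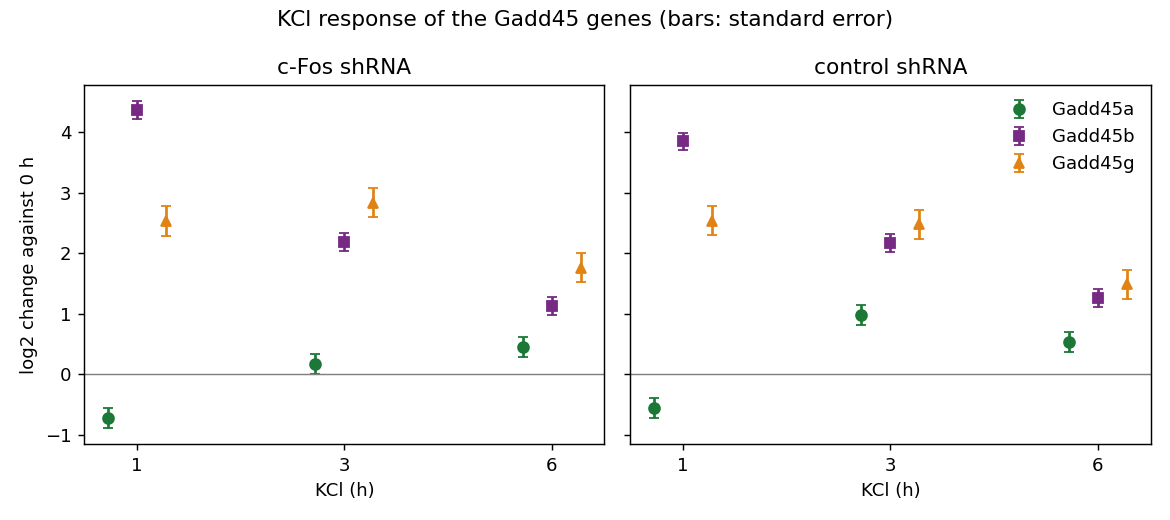
Log2 change against 0 h (bars are the standard error) at 1, 3 and 6 h of KCl, with the c-Fos arm in the left panel and the control arm in the right. Gadd45b starts highest and declines (4.36 to 1.12 and 3.84 to 1.26), Gadd45g stays between 1.48 and 2.83, and Gadd45a is negative at 1 h (-0.72 and -0.56) and positive later.

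Set against all genes, the early response of Gadd45b and Gadd45g was uncommon and the late one less so. At 1 h 2 of the 3 members were higher in each arm, where 1.96% of all tested genes were called higher with c-Fos and 2.29% with control shRNA, and 1 of 3 was lower with c-Fos and none with control shRNA, where 1.4 and 0.826% of genes were. By size of the 1 h change Gadd45b ranked 8 with c-Fos and 13 with control shRNA, and Gadd45g 17 and 28. At 3 h 2 of 3 were higher with c-Fos and 3 of 3 with control shRNA, against 9.92 and 11% of all genes, and at 6 h 3 of 3 in each arm, against 16.1 and 16.7%. Between 1 and 3 h 1 of 3 was higher and 1 of 3 lower in each arm, against 6.95% higher and 12.4% lower with c-Fos and 7.33% and 13.9% with control shRNA. Between 3 and 6 h 2 of 3 were lower in each arm, against 8.19% with c-Fos and 9% with control shRNA. With the block, 3.64% of genes were called lower at 1 h with control shRNA and 1 more member, Gadd45a, was among them.

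With c-Fos shRNA, Gadd45a was lower at 1, 3 and 6 h and Gadd45b at 0, 3 and 6 h, while no difference of Gadd45g was called without the replicate block. Gadd45a averaged 161 ± 27.0, 89.6 ± 10.9, 181 ± 41.7 and 221 ± 43.6 at 0, 1, 3 and 6 h with c-Fos shRNA, against 227 ± 8.69, 149 ± 6.53, 442 ± 15.7 and 316 ± 4.01 with control shRNA (SD, n = 2 each). The arms did not overlap at any of the 4 times, which with 2 arrays a group is a description and no test. The gap was widest at 3 h, where Gadd45a was 59.0% lower with c-Fos shRNA (log2 -1.23, SE 0.16, adjusted p = 0.000193). It was 40.1% lower at 1 h (-0.59, adjusted p = 0.0226) and 30.1% lower at 6 h (-0.51, 0.0413). At 0 h it was 28.8% lower, which missed the threshold (-0.43, adjusted p = 0.0852) and passed it with the block (0.0336).

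Leaving out 1 array ended some of these calls on Gadd45a and left that at 3 h in place. At 0 h the difference was called without the c-Fos replicate 1 (-0.63, adjusted p = 0.0422). At 1 h the call was lost without the c-Fos replicate 2 (-0.46, 0.156), the control replicate 1 (-0.61, 0.0923) or the control replicate 2 (-0.57, 0.101). At 6 h it was lost without any of 10 arrays, all 8 control arrays and both c-Fos 6 h arrays, with values of -0.62 to -0.40 over all arrays left out in turn. Over the 4 times the average difference of Gadd45a was -0.69 (SE 0.08, adjusted p = 1.94e-05).

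Gadd45b, for the arrays listed above, was 36.8% lower with c-Fos shRNA at 0 h (log2 -0.53, SE 0.14, adjusted p = 0.0188), 30.3% lower at 3 h (-0.51, 0.0223) and 37.7% lower at 6 h (-0.67, 0.00545). At these times all c-Fos arrays lay below all control arrays, again a description and no test. At 1 h, the peak, the arms overlapped, with means of 2220 with c-Fos and 2273 with control shRNA and a log2 difference of -0.02 (SE 0.14, adjusted p = 0.955). The call at 0 h was lost without the c-Fos replicate 2 (-0.46, adjusted p = 0.119) or the control replicate 1 (-0.56, 0.0706) or 2 (-0.51, 0.0848), and that at 3 h without the c-Fos replicate 1 (-0.30, 0.224) or the control replicate 2 (-0.40, 0.150). The average over the 4 times was -0.43 (SE 0.07, adjusted p = 0.000324).

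Of the Gadd45b probe sets, the brightest was the 1 of 3 called lower with c-Fos shRNA at 0, 3 and 6 h, where 7.16, 8.21 and 7.7% of all probe sets were. With the replicate block 2 of 3 were lower at 0 h, 3 of 3 at 3 h and 1 of 3 at 6 h. The 3 log2 differences ran from -0.63 to -0.38 at 0 h, from -0.51 to -0.44 at 3 h and from -0.67 to -0.30 at 6 h, and from -0.02 to 0.07 at 1 h. On the average over the 4 times 3 of 3 were lower, with differences of -0.43 to -0.30, against 19.4% of all probe sets. In this larger fit the Gadd45a difference at 6 h missed the threshold (adjusted p = 0.0579).

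The Gadd45g mean with c-Fos shRNA lay 28.1, 27.5, 6.25 and 11.2% below that with control shRNA at 0, 1, 3 and 6 h, and none of these differences was called (log2 -0.44, -0.44, -0.08 and -0.16, SE 0.24, adjusted p = 0.238, 0.238, 0.867 and 0.692). At 1 h the arrays did not overlap, at 1038 and 1127 with c-Fos against 1445 and 1543 with control shRNA. At the other times they did. With the block the differences at 0 h and 1 h were called (adjusted p = 0.0139 and 0.014), as was the average over the 4 times (-0.28, SE 0.12, adjusted p = 0.0761 without the block and 0.00146 with it). The average was also called without the c-Fos 0 h replicate 2 (-0.37, adjusted p = 0.0159), the control 0 h replicate 1 (-0.35, 0.0276) or the control 6 h replicate 1 (-0.34, 0.0366).

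**Figure D4:**
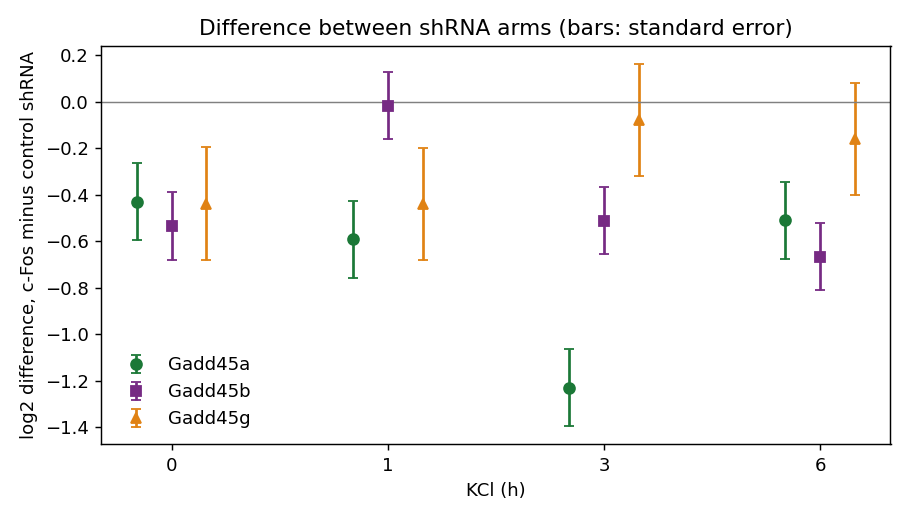
Log2 difference, c-Fos minus control shRNA, for each member by hours of KCl (bars are the standard error, the grey line marks no difference). Gadd45a lies farthest below the line at 3 h (-1.23), Gadd45b lies on it at 1 h (-0.02) and at -0.53 to -0.67 before KCl and at 6 h, and Gadd45g moves between -0.44 and -0.08.

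With c-Fos shRNA 1 member was lower at 0 h and at 1 h, and 2 were lower at 3 h and at 6 h, against 10.3, 10, 10.9 and 10.4% of all tested genes. On the average over the 4 times 2 of 3 were lower, against 22.7%. With the block these became 3 at 0 h, 2 at 1 h and 3 on the average, where 18.4, 18.4 and 28.5% of genes were lower. Between arrays of the same replicate number, Gadd45a was lower with c-Fos shRNA in 8 of 8 pairs (log2 -1.46 to -0.28), Gadd45b in 7 of 8 (-0.73 to 0.14) and Gadd45g in 8 of 8 (-0.50 to -0.01). These pairs are 2 replicate numbers seen at 4 times, and arrays of the same number are correlated, so the pairs are not independent. The share of all genes with such counts was not computed, and the counts are a description only.

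A difference of the KCl response between arms was tested as an interaction, the log2 change of the c-Fos arm less that of the control arm. limma called 0 of 3 members at 1, 3 and 6 h (1, 1 and 0 at an unadjusted p under 0.05), where 0.0431, 0.402 and 1.24% of all genes were called. For Gadd45a the interaction at 3 h was -0.80 (SE 0.23, adjusted p = 0.229, and 0.0472 with the block, under which 4.02% of genes were called), with values of -0.16 at 1 h and -0.08 at 6 h. For Gadd45b it was 0.52 at 1 h (SE 0.20), 0.02 at 3 h and -0.13 at 6 h. Gadd45g gave -0.0020, 0.36 and 0.28. The F test over the 3 times gave adjusted p-values of 0.301, 0.406 and 1 for Gadd45a, Gadd45b and Gadd45g, where 0.87% of genes were called, and a p that misses the threshold does not show that the arms respond alike.

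Ordered by mean level, each member ran differently over the 8 groups. Gadd45b, by its brightest probe set, followed time: both arms at 1 h, which overlapped, then 3 h, 6 h and 0 h. In that probe set c-Fos lay below control at each time, with no overlap between the other neighbours. Probe set 1449773_s_at had the same order, but its arms overlapped at 3 and 6 h too. In 1420197_at the c-Fos mean lay above control at 1 h, and that of c-Fos 6 h (48.0) below control 0 h (48.1). There the groups from c-Fos 3 h down to c-Fos 6 h overlapped from neighbour to neighbour. Gadd45g was highest in control 1 h, control 3 h and c-Fos 3 h, whose neighbours overlapped, then c-Fos 1 h, then both arms at 6 h and both arms at 0 h, the arms overlapping at each of these times. Gadd45a was highest in control 3 h and next in control 6 h, both apart from the rest, and lowest in c-Fos 1 h. The 5 groups between, from control 0 h through c-Fos 6 h, 3 h and 0 h to control 1 h, overlapped from neighbour to neighbour.

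The genes most like each member over the 16 arrays were found by the root mean square distance of their log2 values, each centred on its own mean, among 13914 other genes. For Gadd45b (SD over arrays 1.58) they were the zinc finger factors Egr2 (distance 0.39), Egr1 (0.48) and Klf4 (0.52), the synaptic protein gene Arc (0.52) and Ier2 (0.57). For Gadd45g (SD 1.13) they were Ppp1r15a (0.31), a regulatory subunit of protein phosphatase 1 also known as Gadd34, Ccno (0.34), Fbxo33 (0.36), Mss51 (0.39) and Nfkbid (0.43). For Gadd45a (SD 0.65) they were LOC102631979 (0.29), Tnfaip3 (0.30), a regulator of NF-kappaB signalling, Onecut2 (0.30), Dipk2a (0.32) and Arid5b (0.33). No gene was among the 5 nearest of more than 1 member. The distance depends on the size of the changes, which differs between members, so this does not show that they have separate companions. On the average over the 4 times, the arm differences of the 5 nearest to Gadd45b ran from -0.91 (Egr2) to 0.10 (Egr1), against -0.43 for Gadd45b. Of the 5 nearest to Gadd45a, LOC102631979 had a 1 h change of -0.91 with control shRNA and the others lay between -0.13 and 0.07, against -0.56 for Gadd45a.

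The gene lists around the family were chosen with earlier results of these data known. A count above the share of all genes therefore describes a list and does not test it. The lists are read against the share of all tested genes called, which the replicate block raised. At 1 h 4.09% were higher and 4.24% lower with c-Fos under the block, and 4.51 and 3.64% with control shRNA. At 3 h these shares were 14.6 and 28.4% with c-Fos and 15.8 and 28.6% with control shRNA, and at 6 h 21.7 and 33.3%, and 21.7 and 35.2%. Between arms, on the average over the 4 times, 31.9% were higher and 28.5% lower with c-Fos shRNA under the block.

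Among genes described as regulators of Gadd45 expression, 14 of 17 were tested and 5 were higher at 1 h in each arm, where 1.96% of all genes were with c-Fos and 2.29% with control shRNA. None was lower, but with the block Myc was with c-Fos (-0.34, adjusted p = 0.00445) and Brca1 with control shRNA (-0.51, 0.0318). At 3 h 7 were higher and 1 lower with c-Fos, and 8 and 1 with control shRNA, against 9.92 and 11% of all genes higher and 18.3 and 19.3% lower. With the block 2 were lower at 3 h in each arm. At 6 h 8 were higher with c-Fos and 7 with control shRNA (8 with the block), against 16.1 and 16.7%. None was lower at 6 h, with 1 and 2 lower under the block. The neuronal activity factor Npas4 was up by a log2 of 6.09 with c-Fos and 6.34 with control shRNA at 1 h, and Egr1 by 3.90 and 4.46. The stress factors Atf3 and Atf4 rose at 1 h by 2.09 and 0.61 with c-Fos and by 2.64 and 0.97 with control shRNA. The Atf3 interaction was called at 3 h (-1.66, adjusted p = 0.0216) and 6 h (-1.75, 0.00994) and not at 1 h (-0.55). That of Atf4 was not called at 1, 3 or 6 h (-0.36, -0.40 and -0.34). The list's median change at 1 h was 0.11 with c-Fos and 0.03 with control shRNA, against -0.03 over all tested genes in each arm.

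Of 12 genes of the MTK1, p38 and JNK cascade, which the GADD45 proteins feed, 10 were tested and limma called 0 at 1 h in either arm (1 with c-Fos and 0 with control shRNA at an unadjusted p under 0.05). At 3 h 2 were lower in each arm, where 18.3% of all genes were lower with c-Fos and 19.3% with control shRNA. At 6 h 1 was higher and 1 lower with c-Fos and 4 were lower with control shRNA, where 24.9 and 27.3% of all genes were lower. With the block 0 were higher and 3 lower with c-Fos at 3 h and 2 and 2 with control shRNA, and at 6 h 2 and 3, and 1 and 5. Map3k4, the kinase the family binds, stood at log2 changes of 0.17, -0.06 and 0.20 with c-Fos and 0.00, -0.02 and 0.14 with control shRNA at 1, 3 and 6 h, none called without the block and the 6 h value with c-Fos called with it (adjusted p = 0.0254). Mapk14, which encodes p38 alpha, was lower with c-Fos than with control shRNA on average (log2 -0.75, adjusted p = 6.56e-08), as 5 of the 10 were, with 1 higher, where 22.7% of all genes were lower and 25.2% higher. With the block 6 were lower and 2 higher.

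Of the cell cycle partners 5 of 6 were tested, with 1 higher at 1 h and 2 higher at 3 and 6 h in each arm, and none lower. Of all genes 1.96, 9.92 and 16.1% were higher with c-Fos and 2.29, 11 and 16.7% with control shRNA at these times. With the block 2 were higher at 1 h and 3 at 3 h in each arm. Cdkn1a rose by 0.44, 0.71 and 0.97 with c-Fos shRNA and by 0.70, 1.58 and 1.95 with control shRNA at 1, 3 and 6 h. Its interaction was called at 3 h (-0.87, adjusted p = 0.0135) and 6 h (-0.98, 0.00578). Pcna, the sliding clamp of DNA replication, was higher by 0.42 with c-Fos and 0.25 with control shRNA at 3 h, and with the block also at 1 h (0.16, adjusted p = 0.00796, with c-Fos and 0.17, 0.00684, with control shRNA). Cdk1 stood at log2 changes of at most 0.21 with c-Fos and 0.31 with control shRNA, both at 3 h, and these were called with the block (adjusted p = 0.0193 and 0.00116) and not without it.

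Among 12 of 14 p53 genes and targets that were tested, 4 were higher at 1 h in each arm, where 1.96% of all genes were with c-Fos and 2.29% with control shRNA. None was lower, but with the block Sesn1 (-0.33, adjusted p = 0.0385) and Ccng1 (-0.15, 0.0497) were lower with c-Fos, and Sesn2 was also higher with control shRNA (0.43, 0.0112). At 3 h 6 were higher and 1 lower with c-Fos (6 and 2 with the block), and 5 and 2 with control shRNA (6 and 3). Of all genes 9.92 and 11% were higher and 18.3 and 19.3% lower at 3 h. At 6 h 6 were higher and 1 lower with c-Fos, and 5 higher and 3 lower with control shRNA, against 16.1 and 16.7% of all genes higher and 24.9 and 27.3% lower. With the block 7 were higher in each arm and 2 lower with c-Fos and 3 with control shRNA. The antiproliferative gene Btg2 rose at 1 h by 2.48 with c-Fos and 3.66 with control shRNA, and the proapoptotic Pmaip1 by 1.27 and 1.61. The Btg2 interaction of -1.19, -1.34 and -1.31 at 1, 3 and 6 h was called with the block (adjusted p = 0.00326, 0.000253 and 0.000192) and not without it (0.780, 0.0859 and 0.0581). With the block 1 interaction of the list was higher and 3 were lower at 3 h, and likewise at 6 h. Of all genes 1.98% were higher and 2.04% lower at 3 h, and 5.73 and 5.63% at 6 h. The higher one was Trp53inp1 (0.39 and 0.27), and Sesn2 (-0.87 and -0.85) was also lower, neither called without the block. On average over the 4 times 6 were lower with c-Fos shRNA, as Gadd45a was, and 3 were higher (6 and 4 with the block), where 22.7% of all genes were lower and 25.2% higher: Btg2 (-0.85) and the cyclin gene Ccng1 (-0.75) were among the lower ones and Mdm2 (0.40) among the higher ones. The list's median of that difference was -0.14, against 0.02 over all tested genes. Cdkn1a was counted both in this list and among the cell cycle partners.

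Of the DNA methylation and demethylation genes 17 of 20 were tested, and limma called 0 at 1 h, when Gadd45b peaked, in either arm (1 with c-Fos and 0 with control shRNA at an unadjusted p under 0.05). With the block 2 were higher at 1 h with c-Fos, Tet2 (0.28, adjusted p = 0.0127) and Ing1 (0.20, 0.0307), and 0 with control shRNA. At 3 h 2 were higher and 5 lower with c-Fos, and 1 and 6 with control shRNA, against 9.92 and 11% of all genes higher and 18.3 and 19.3% lower, and with the block 8 were lower in each arm. At 6 h 2 were higher in each arm and 8 were lower with c-Fos (10 with the block) and 11 with control shRNA, against 16.1 and 16.7% of all genes higher and 24.9 and 27.3% lower. The list medians at 6 h were -0.26 with c-Fos and -0.49 with control shRNA, against -0.06 and -0.07 over all tested genes. The dioxygenase gene Tet1 fell by 0.73 with c-Fos and 1.28 with control shRNA at 6 h, and the methyltransferase gene Dnmt3b by 0.83 and 0.93. The Tet1 interaction at 6 h was 0.55 (adjusted p = 0.0889, and 0.0122 with the block). Without the block limma called 0 interactions of the list at 3 and 6 h (3 and 4 at an unadjusted p under 0.05). With the block 3 were higher at each of these times and 0 lower, where 1.98 and 5.73% of all genes were higher. Ercc5 (0.66 and 0.71) and Ing1 (0.39 and 0.45) were called at both times and Mbd4 (0.79) at 3 h. The repair endonuclease gene Ercc5 was higher at 6 h by 1.27 with c-Fos and 0.57 with control shRNA, and Tet2 by 0.41 and 0.44. Tet3 was not called for KCl in either arm and was lower with c-Fos shRNA on average (-0.65, adjusted p = 0.0436).

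The growth factor genes whose promoters have been linked to Gadd45b parted ways. Bdnf rose by 2.15, 4.31 and 4.84 with c-Fos shRNA and by 2.18, 5.01 and 5.71 with control shRNA at 1, 3 and 6 h, with limma adjusted p-values of at most 0.000108. Its highest mean came when Gadd45b had dropped to 9.59% of its peak with c-Fos and 15.0% with control shRNA. Fgf1 stood at -0.24, -0.12 and -0.02 with c-Fos and at 0.07, 0.05 and 0.01 with control shRNA, none called. On average over the 4 times Fgf1 was lower with c-Fos shRNA (log2 -0.22, adjusted p = 0.0301), and Bdnf stood at -0.20 (0.178, and 0.0117 with the block). The Bdnf interactions of -0.70 at 3 h (adjusted p = 0.629) and -0.87 at 6 h (0.237) were called with the block (0.0337 and 0.00568).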

How the data were processed

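Total RNA from the 16 cultures was measured on 1-colour arrays, with 10 µg of labelled cDNA hybridised to each, per the series' design text. The authors deposited 1 linear intensity per probe set and array, made with Affymetrix processing per that text. The summarization software was not given in the sources used here, nor were its settings. Medians of the arrays differed by 13.2% (104.75 to 118.56), so log2(intensity + 16) was quantile normalized. That log2 scale is computed here from the deposited values. No detection calls were used.

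Symbols came from the platform annotation: of 45037 non-control probe sets 34945 had 1 gene, 932 several and 9160 none, and 34741 of the first matched a RefSeq gene table by Entrez number. For each gene the probe set of highest mean was taken and tested where that mean lay above the 30th percentile. limma 3.58.1 in R 4.3.3 fitted the 8 group means (lmFit, eBayes with an intensity trend, 8 residual degrees of freedom). A second fit tested 31526 probe sets. The procedure was tested on simulated data with noise independent between arrays. That simulation lacks the correlation of same-numbered arrays given below, so it does not cover it.

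The text names the members, Fos, the 5 genes nearest to each member, called members of the gene lists, and 10 partners whatever their value. Members and lists were chosen with earlier results of these data known. Replicate numbers are those of the labels. The deviations of same-numbered arrays were correlated over 0.1 in 28 of 28 pairs of groups (0.36 to 0.60), so the numbers pair the arrays, and the fit with the replicate number as a block stands beside a member's result, a list's count or a named gene's value where it changes the call. Alternatives were the block, the compared arrays only, the pseudocount, the filter, the normalization, the trend, the rule for several probe sets and each array left out.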

Additional observations from a re-analysis of the deposited data

How the results depend on the processing

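Of 564 values of the member genes under other settings, single probe sets not included, 535 kept their direction and side of the threshold. Of the rest 16 lost the call, 8 gained it and 5 changed sign. The Gadd45a difference between arms at 3 h and all calls of Gadd45b and Gadd45g against 0 h kept theirs in every setting, each array left out included. Unless stated, the cause was not tested. With the replicate block 7 results gained a call: c-Fos against control for Gadd45a at 0 h (-0.43), Gadd45g at 0 h (-0.44), 1 h (-0.44) and on average (-0.28), Gadd45a in the control arm at 1 h (-0.56) and at 6 h against 3 h (-0.44), and the Gadd45a interaction at 3 h (-0.80). The block changed no other call of a member. With only the compared arrays, and so fewer samples, calls were lost for c-Fos against control of Gadd45b at 0 h (-0.53) and 3 h (-0.51) and Gadd45a at 1 h (-0.59) and 6 h (-0.51), and for Gadd45a in the c-Fos arm at 1 h (-0.72) and 6 h (0.45), and Gadd45g at 1 h gained one (-0.44). With the mean over a gene's probe sets, Gadd45b lost its arm calls at 0, 3 and 6 h (-0.52, -0.49 and -0.44), and its uncalled values at 1 h (0.012) and for the interaction at 6 h (0.077) changed sign. A pseudocount of 64 ended the Gadd45b call at 0 h (-0.39) and turned its interaction at 3 h (-0.083), and a pseudocount of 1 turned that of Gadd45g at 1 h (0.028), as did no further normalization (0.0069). Gadd45a at 6 h lost its arm call with no filter (-0.51) and no further normalization (-0.50), its c-Fos call with no filter (0.45), no further normalization (0.42) and a median shift (0.41), and its control call with no further normalization (0.46).

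Leaving out each array in turn, in the fit without the block, 844 of 912 values kept direction and side, 41 lost the call, 4 gained it and 23 changed sign. The results that changed ran as follows. For KCl with c-Fos shRNA, Gadd45a lay at -0.92 to -0.52 (1 h), -0.030 to 0.37 (3 h) and 0.25 to 0.66 (6 h), and Gadd45g at 6 h against 3 h at -1.20 to -0.94. With control shRNA Gadd45a at 6 h lay at 0.49 to 0.59, Gadd45g at 3 h against 1 h at -0.15 to 0.037 and at 6 h against 3 h at -1.25 to -0.73. For c-Fos against control, Gadd45a lay at -0.63 to -0.23 (0 h), -0.73 to -0.46 (1 h) and -0.62 to -0.40 (6 h), Gadd45b at -0.61 to -0.46 (0 h), -0.13 to 0.10 (1 h) and -0.72 to -0.30 (3 h), and Gadd45g at -0.21 to 0.047 (3 h), -0.42 to 0.10 (6 h) and -0.37 to -0.19 (average). Interactions lay at -0.36 to 0.038 (Gadd45a, 1 h), -0.28 to 0.12 (Gadd45a, 6 h), -0.19 to 0.23 (Gadd45b, 3 h), -0.36 to 0.35 (Gadd45g, 1 h) and -0.076 to 0.63 (Gadd45g, 6 h).

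Counts of all genes called moved by over 1.5 times with the block (the count with it first, then without): 1159 and 468 at 1 h, 5972 and 3922 at 3 h, 4677 and 2687 at 3 h against 1 h and 4692 and 2388 at 6 h against 3 h with c-Fos shRNA, 1134 and 434 at 1 h, 4837 and 2948 at 3 h against 1 h and 4726 and 2361 at 6 h against 3 h with control shRNA, 5396 and 3103, 5265 and 2890, 5628 and 3241, and 5779 and 3312 between arms at 0, 1, 3 and 6 h, and 28 and 6, 560 and 56, 1582 and 172, and 1402 and 121 for the interactions at 1, 3 and 6 h and their F test. With only the compared arrays they were 172 (1 h), 1382 (3 h against 1 h) and 1454 (6 h against 3 h) with c-Fos, 191 (1 h) and 896 (6 h against 3 h) with control shRNA, 1688 and 2159 between arms at 1 and 6 h, and 1, 7 and 13 for the interactions. The mean over probe sets gave 3, 31, 82 and 60 for the interactions and F test, and no intensity trend gave 1 at 1 h. The compared arrays alone could not be used for the average and the F test, which already use all arrays.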
